A study of Mus musculus with 8 samples.

Results

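A set of 360 chromatin loops carried more H3K27ac contacts in every library of the B6 background than in any library of the D2 background. They were chosen on the measured counts themselves. Among loops off chromosomes 11, X and Y with at least 30 counts in total, a loop entered the set when its lowest CPM (counts per 1000000 counts of a library) in the B6 background exceeded 1.5 times its highest CPM in the D2 background. The count minimum and the chromosomes left 32507 of the 415681 loops of the table to choose from. The same rule turned round, with the D2 background higher, held for 336 loops. Because the difference between the backgrounds chose the loops, every value of that difference below is a description without a test.

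The libraries came from mouse embryonic stem cells of 4 lines, each with 2 technical replicates, so each line stands for 1 line of its genotype. B6, the line B6 5-1, had the genome of C57BL/6J, and D2, the line D2 5-5, that of DBA/2J, both inbred strains. B6-13D2, labelled QJ 6-1 by the submitters, was of the congenic strain B6.D2-(rs30079041-rs51756099)/Bakr, in which an interval of chromosome 13 comes from D2. D2-13B6, labelled XE 2-4, was the reciprocal strain D2.B6-(rs29224292-rs13469455)/Bakr, with a B6 interval. For one end of that interval the series text gives a different marker than the sample labels, and marker positions were not used here. B6 and B6-13D2 make up the B6 background with 4 libraries, and D2 and D2-13B6 the D2 background with 4 libraries. All cells were grown with serum, LIF and the inhibitors PD0325901 and CHIR99021. Technical replicates of 1 line share their cells, so p-values below measure the spread between libraries and not between independently derived lines.

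H3K27ac is acetylation of lysine 27 on histone H3, a mark of active promoters and enhancers. In HiChIP, DNA ends that lie together in fixed nuclei are joined, fragments with the mark are pulled down, and the read pairs report which sites were in contact. In embryonic stem cells such contacts link enhancers with the promoters of genes that are in use. A count depends on both the mark and the contact, and the 2 cannot be told apart in these data. A loop of the table is a pair of anchors, each made of touching 5-kb bins, and a loop with the same anchor at both ends holds contacts inside that anchor.

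Library totals ran from 737955 to 1425304 counts. All 10 stem cell markers examined, among them Pou5f1, Sox2 and Nanog, had their start in an anchor, with 747 to 984 CPM at the Nanog anchor. None of the endoderm, mesoderm, neural or trophoblast markers lay in an anchor. Of the 4 fibroblast markers only Col1a2 did, with 16.2 to 36.5 CPM. No gene of these marker lists had its start at an anchor of the 360 loops.

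The sequences below are the RefSeq promoters on GRCm38.p6, 250 bases before to 50 bases after a start, of genes whose contacts are described first. They are shown because contacts of their anchors are described below, and in them capitals mark letters of a searched motif on either strand. The GC box, bound by Sp1 and related factors, was searched as GGGCGG, and the motif of ETS factors as CCGGAAG. The octamer bound by Pou5f1 and its relatives was searched as ATGCAAAT. For the TATA box the letters were TATAAA, and for the E-box they were CACGTG. The motif of the factor YY1 was searched as AAGATGGCG.
Nod1, chr6:54972563-54972862, minus strand: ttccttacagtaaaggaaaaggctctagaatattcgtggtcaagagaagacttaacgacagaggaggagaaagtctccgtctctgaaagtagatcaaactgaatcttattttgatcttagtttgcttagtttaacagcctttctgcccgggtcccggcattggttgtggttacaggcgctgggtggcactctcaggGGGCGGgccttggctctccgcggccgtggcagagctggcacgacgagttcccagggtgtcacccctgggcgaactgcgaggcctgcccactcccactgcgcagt
Btn2a2, chr13:23488808-23489107, minus strand: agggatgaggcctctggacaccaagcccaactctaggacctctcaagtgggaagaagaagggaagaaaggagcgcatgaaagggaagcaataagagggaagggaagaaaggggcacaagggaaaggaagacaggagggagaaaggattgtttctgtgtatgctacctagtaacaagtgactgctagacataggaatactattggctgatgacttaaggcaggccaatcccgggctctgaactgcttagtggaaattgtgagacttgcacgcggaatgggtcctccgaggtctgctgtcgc
Scaf4, chr16:90284437-90284736, minus strand: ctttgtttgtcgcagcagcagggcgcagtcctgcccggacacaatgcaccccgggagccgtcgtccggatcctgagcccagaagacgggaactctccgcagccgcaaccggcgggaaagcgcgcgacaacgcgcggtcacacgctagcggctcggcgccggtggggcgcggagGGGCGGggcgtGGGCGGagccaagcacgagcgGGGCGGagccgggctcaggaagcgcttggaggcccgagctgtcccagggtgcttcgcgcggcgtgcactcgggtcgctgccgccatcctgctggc
Hacd2, chr16:35022171-35022470, plus strand: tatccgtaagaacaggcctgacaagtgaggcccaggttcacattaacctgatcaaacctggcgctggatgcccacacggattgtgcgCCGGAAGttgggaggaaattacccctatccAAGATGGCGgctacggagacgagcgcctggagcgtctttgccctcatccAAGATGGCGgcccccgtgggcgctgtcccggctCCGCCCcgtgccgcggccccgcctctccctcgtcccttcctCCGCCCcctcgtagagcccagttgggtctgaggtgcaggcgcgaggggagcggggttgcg
Atf7ip, chr6:136518601-136518900, plus strand: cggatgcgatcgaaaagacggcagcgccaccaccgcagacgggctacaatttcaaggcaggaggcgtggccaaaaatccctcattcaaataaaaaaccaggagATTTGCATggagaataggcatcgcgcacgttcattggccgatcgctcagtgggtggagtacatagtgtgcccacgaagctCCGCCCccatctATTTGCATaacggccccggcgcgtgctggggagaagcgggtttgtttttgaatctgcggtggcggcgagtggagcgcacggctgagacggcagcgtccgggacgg

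The Nod1 window held 1 GC box, the Scaf4 window 3, and the Btn2a2 window none of the searched letters. Nod1 and Scaf4 each have 2 RefSeq entries in their anchor, 1 of which is shown. The second Nod1 window held none of the searched letters and the second Scaf4 window 3 GC boxes. The Hacd2 window held 5 matches to the ETS, YY1 and GC box letters. The Atf7ip window held the octamer letters on 2 occasions besides a GC box. Over all 327 RefSeq promoter entries with their start in an anchor of the 360 loops, from 265 genes, 44.3% held the GC box letters, against 35.7% of all 32851 entries. The ETS letters stood in 10.4% against 8.86%, the octamer in 2.45% against 1.74% and the E-box in 8.26% against 7.15%. TATA box letters stood in 9.48% against 13.6%, and YY1 letters in 0.917% against 1.40%. The median entry at these anchors had 13 CpG dinucleotides and 56.0% GC, against 7 and 52.7% over all entries. The NRF1 core, searched as GCGCATGC, stood in 3.36% against 2.71%, and the CRE, searched as TGACGTCA, in 2.45% against 1.79%. These matches are descriptions of letters in a window. Anchors of H3K27ac loops often lie at active promoters, so all promoters are not a matched set, and the matches were not compared with those at other anchors.

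Among the 10 contacts inside 1 anchor with a coding gene start and the most counts, those of Nod1, Btn2a2 and Scaf4 had the widest ratios of means. Nod1 encodes an intracellular receptor for fragments of bacterial peptidoglycan. Contacts inside its anchor (chromosome 6, 54935001 to 54975000, GRCm38) stood at 289 and 252 CPM in B6 and at 312 and 324 CPM in B6-13D2. The same contacts stood at 30.1 and 43.0 CPM in D2 and at 20.8 and 30.9 CPM in D2-13B6. The mean was 294 ± 31.6 CPM (SD, n = 4 libraries of 2 lines) in the B6 background and 31.2 ± 9.10 CPM in the D2 background, a 9.44-fold ratio of means.

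Btn2a2 encodes a butyrophilin, a membrane protein of the immunoglobulin superfamily that acts on T cells. Its anchor lies on chromosome 13 from 23485001 to 23520000. Contacts inside it stood at 147 and 156 CPM in B6 and higher, at 226 and 222 CPM, in B6-13D2. D2 had 9.62 and 24.7 CPM and D2-13B6 had 18.6 and 21.8 CPM, so the means of the backgrounds differed 10.0-fold. Scaf4 encodes a protein that binds the tail of RNA polymerase II and acts in transcript termination. Inside its anchor (chromosome 16, 90280001 to 90315000), B6 had 178 and 157 CPM, B6-13D2 had 190.4 and 197 CPM, D2 had 26.5 and 27.3 CPM, and D2-13B6 had 29.4 and 26.0 CPM. The lowest B6-background library at Scaf4 was 5.35 times the highest D2-background library, and the SD over the 4 D2-background libraries was 1.51 CPM.

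Contacts were next followed along these 3 anchors in the 5-kb bins of the libraries' own files, as the sum of all pairs with an end in a bin. At Nod1 every bin of the anchor was lower in the D2 background. The bin with the gene start had 51.5 to 83.5 CPM in the B6 background and 10.4 to 16.8 CPM in the D2 background. The bin centred 20.1 kb into the gene was the highest of the anchor in the B6 background, with 130.1 to 164 CPM, against 13.6 to 20.8 CPM in the D2 background. The Nod1 difference covered the whole anchor.

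At Btn2a2 the difference had sharp edges. The 5 adjacent bins from 23490001 to 23515000, 25 kb upstream of the gene start, had 78.8 CPM or more in each B6-background library and at most 7.81 CPM in any D2-background library. The bin with the gene start, on one side of them, had a mean of 70.3 ± 16.1 CPM in the B6 background and 53.2 ± 8.02 CPM in the D2 background. The bin on the other side had 170.0 against 109.9 CPM. Contacts of the bins at both edges were present in all D2-background libraries, while the 5 bins between them had a mean of 1.52 to 3.67 CPM there. Outside the anchor, the nearest upstream bin with counts had 58.8 to 124 CPM in the B6 background and 135 to 187 CPM in the D2 background. The nearest such bin downstream of the start had 77.2 to 88.6 against 63.8 to 74.6 CPM.

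At Scaf4 every bin of the anchor was lower in the D2 background, most of them upstream of the start. The bin centred 13.0 kb upstream had 77.2 to 107 CPM in the B6 background and 3.61 to 12.6 CPM in the D2 background. The start bin had 52.8 ± 2.49 against 20.2 ± 7.88 CPM (mean ± SD, n = 4 libraries of 2 lines).

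**Figure D1:**
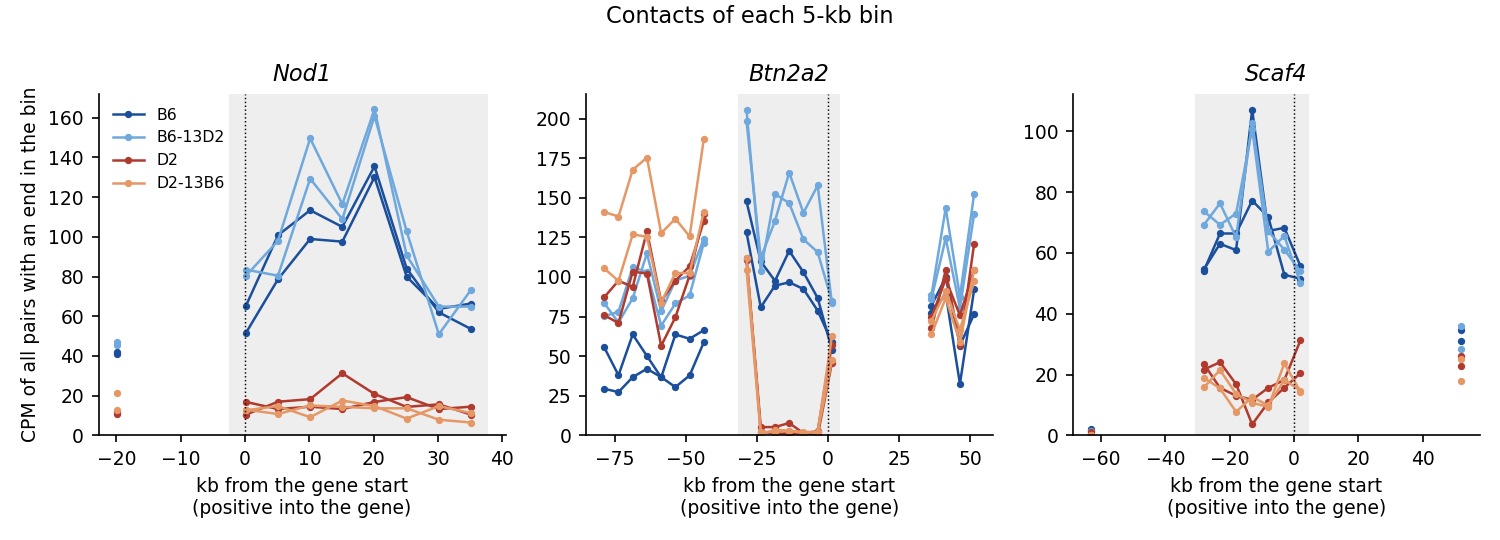
Sum of all listed pairs with an end in each 5-kb bin (CPM), against distance in kb from the gene start, for Nod1, Btn2a2 and Scaf4. Each line is 1 library, grey marks the anchor, the dotted line is the gene start, and bins that no library lists have no point. The lines of the 4 D2-background libraries lie near 0 over 5 adjacent bins at Btn2a2 and rise again in the bins on either side.

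Bins this depleted were few. Among 41574 bins off chromosomes 11, X and Y with at least 30 counts, 32 had at least 10-fold fewer contacts in the D2 background, with that side set to at least 3 counts over the group, and 33 had at least 10-fold fewer in the B6 background. Anchors of the 360 loops held 1639 of the bins and 20 of the 32. These 20 bins formed 11 runs touched by 15 of the loops, and the run at Btn2a2 was the longest. A run of 15 kb lay on chromosome 5 from 104730001 to 104745000, where each bin had a mean of 14.6 to 21.4 CPM in the B6 background and 0 to 0.505 CPM in the D2 background.

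The runs on chromosome 7 lay in the Trim6, Trim34a, Trim5 and Trim12a cluster, genes of E3 ubiquitin ligases, and TRIM5 proteins are known to restrict retroviruses. There, 6 of the 9 loops that the rule could choose from were in the set. The contact between the 2 anchors that hold Trim12a (104295001 to 104305000 and 104310001 to 104320000) had 40, 32, 43 and 51 counts in the B6 background, in the order B6, B6, B6-13D2 and B6-13D2. In D2 it had 0 counts in both libraries, and in D2-13B6 it had 1 count in each. The ratio of count rates was 91.0, with an exact 95% interval of 24.8 to 758 that covers counting error only. Between Trim5 and Trim12a, 64 counts in the B6 background stood against 1 in the D2 background, a ratio of 70.2 (12.2 to 2816). Both loops were chosen on these counts, so the intervals describe the counts and are no test of a difference.

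The Trim12a and Trim5 promoters are shown because they share sequence. In them capitals mark the longest run of identical bases, 241 of the 300 bases of each window. No other pair among the promoters of Trim6, Trim34a, Trim5 and Trim12a shared a run of more than 8 bases.
Trim12a, chr7:104315446-104315745, minus strand: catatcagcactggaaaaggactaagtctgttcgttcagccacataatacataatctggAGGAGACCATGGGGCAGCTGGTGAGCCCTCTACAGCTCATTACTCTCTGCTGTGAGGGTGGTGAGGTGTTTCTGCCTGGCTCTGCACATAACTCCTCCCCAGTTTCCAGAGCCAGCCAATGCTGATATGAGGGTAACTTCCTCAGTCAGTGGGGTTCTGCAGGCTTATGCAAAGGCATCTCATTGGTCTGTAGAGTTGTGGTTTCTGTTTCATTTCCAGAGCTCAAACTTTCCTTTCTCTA
Trim5, chr7:104288057-104288356, minus strand: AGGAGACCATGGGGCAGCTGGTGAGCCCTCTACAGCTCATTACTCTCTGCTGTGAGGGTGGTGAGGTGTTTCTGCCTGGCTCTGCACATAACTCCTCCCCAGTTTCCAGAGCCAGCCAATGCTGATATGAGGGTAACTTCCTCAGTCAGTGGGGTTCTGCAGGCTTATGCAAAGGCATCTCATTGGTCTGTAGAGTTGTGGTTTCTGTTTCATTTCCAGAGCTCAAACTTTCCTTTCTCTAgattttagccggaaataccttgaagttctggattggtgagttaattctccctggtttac

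The bin with the Trim12a start had 27.1 ± 5.10 CPM in the B6 background and 1.79 ± 0.886 CPM in the D2 background. The bin with the Trim5 start had 27.1 ± 3.22 against 2.24 ± 1.85 CPM. In the same cluster the bins with the starts of Trim6 and Trim34a kept most of their contacts, with 50.1 ± 8.74 against 35.5 ± 9.19 CPM at Trim6 and 49.99 ± 10.6 against 28.4 ± 8.41 CPM at Trim34a. Counts at Trim5 and Trim12a are uncertain where the authors' mapping could split reads between copies.

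In all, 5 of the 360 loops had 0 counts in each D2-background library. They were the contacts inside the anchors of Gm14412 on chromosome 2, Gm28503 on chromosome 12 and the anchor on chromosome 5 from 104720001 to 104745000, and the contacts of Trim6 with each of the 2 anchors of Trim12a. With 3 counts set over the D2-background group in place of 0, the ratios of the 5 loops were 13.5 to 30.7, on the counts that chose them. A further 29 loops were at 0 counts in some but not all D2-background libraries, making 34 with a 0 in at least 1. No loop had a 0 in a B6-background library, which the rule requires. Among the loops with the widest gap between the lowest B6-background and the highest D2-background library was one on chromosome 9. It joined the anchor from 124255001 to 124260000 with the anchor of Gm39469 from 124270001 to 124285000. It had 27.3, 33.9, 26.5 and 25.8 CPM in the B6 background and 0 to 2.87 CPM in the D2 background, a ratio of means of 20.7.

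Most differences were much smaller. The ratio of the mean CPM of the backgrounds had a median of 3.15, and quartiles of 2.54 and 4.04. It was above 2 for 348 loops, above 3 for 205, above 5 for 58 and above 10 for 17, with the 5 loops at 0 counted in each. The lowest ratio was 1.78, for the loop of Tmem51 to Kazn on chromosome 4. The 3 loops just inside the limit were Nupl2 with an anchor on chromosome 5, a loop on chromosome 7 from 82780001 to 82810000 and Csrnp1 to Rpsa on chromosome 9, whose lowest B6-background library was 1.502, 1.504 and 1.505 times the highest D2-background library. The 3 just outside stood at 1.4997, 1.498 and 1.4975, so the limit cuts a continuous range.

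**Figure D2:**
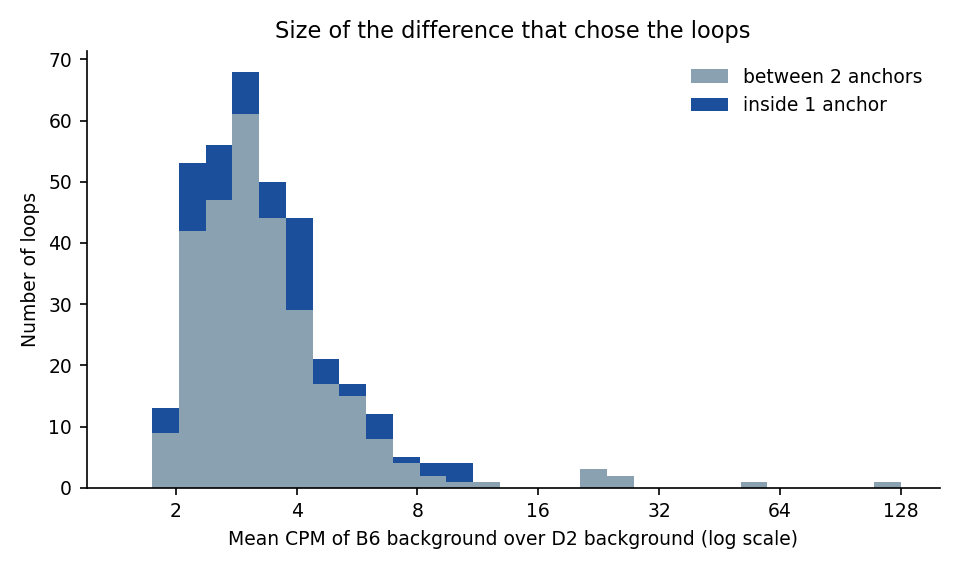
Number of loops (y axis) by the ratio of mean CPM in the B6 background to that in the D2 background (x axis, log scale), with contacts inside 1 anchor stacked on loops between 2 anchors. The 5 loops with 0 counts in the D2 background have no finite ratio and are not drawn. Ratios start at 1.78, have a median of 3.15 and reach 118, a value for Trim12a to Trim12a that rests on 2 counts in the D2 background.

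Of the 360 loops, 71 were contacts inside 1 anchor, which is 19.7% against 12.6% of the 32507 loops to choose from. The other 289 joined 2 anchors a median of 35 kb apart, against 70 kb for all such loops to choose from. Spans of 100 kb or more made up 19.2% of the set and 34.2% of the loops to choose from, and 10 loops spanned 500 kb or more. The longest, of 1580 kb, joined the Zfp184 anchor to Btn2a2. The loops had a median of 91.5 counts in total, from 30 to 2751, against 69 for the loops to choose from. Whether the count total bears on passing the rule was not tested.

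Gene starts were less frequent at these loops than among the loops to choose from. A start of a protein-coding gene lay in an anchor or within 5 kb of one for 238 loops, 66.1% against 81.5%. Of the loops joining 2 anchors, 31.5% had a start at both ends, against 48.1%. For the 336 loops of the opposite rule the share with a start was lower still, at 51.2%. Base composition differed little, with a median GC content of 44.9% at the 360 loops and 45.5% over the loops to choose from. Repeat-masked bases of the GRCm38 sequence made up a median of 29.6% at these loops, 29.1% over the loops to choose from and 36.1% at the loops of the opposite rule. The reference sequence is of C57BL/6J. Whether reads of D2 origin were lost where the genomes differ was not tested.

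Of the contacts inside 1 anchor with a coding gene start, the 10 with the most counts were described one by one. Besides Nod1, Btn2a2 and Scaf4 they included the anchor of Pgpep1l and Fam169b on chromosome 7, with 425, 378, 490 and 458 CPM in the B6 background against 221, 234, 217 and 208 CPM in the D2 background. The anchor of Dusp27 and Gpa33 on chromosome 1, the latter a surface antigen of gut epithelium, had 299 to 316 CPM against 156 to 196 CPM. At Ffar2, a receptor for short-chain fatty acids, the B6 background had 263 to 358 CPM and the D2 background 130.5 to 156 CPM. Hacd2, an enzyme of very-long-chain fatty acid elongation, had 215 to 300.3 CPM against 102 to 127 CPM. For these 4 anchors the ratio of means lay between 1.78 and 2.33.

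At Gm21915 on chromosome 9, B6 had 332 and 324 CPM and B6-13D2 205 and 243 CPM, against 74.5 to 97.4 CPM in the D2 background. Pdpn, which encodes the membrane glycoprotein podoplanin, had 283 and 203 CPM in B6 and 159 and 177 CPM in B6-13D2, against 65.1 to 101 CPM in the D2 background. At Ergic1, a protein of transport between endoplasmic reticulum and Golgi, 107 to 131 CPM stood against 54.1 to 62.4 CPM. At these 3 anchors both B6-13D2 libraries lay below both B6 libraries, and at the other 7 they lay above. With 2 libraries per line such an order can arise without a difference between lines, and its share over all loops was not worked out. Of these anchors only Gm21915, Pdpn, Btn2a2 and Hacd2 were called, with tests given with the interval below.

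**Figure D3:**
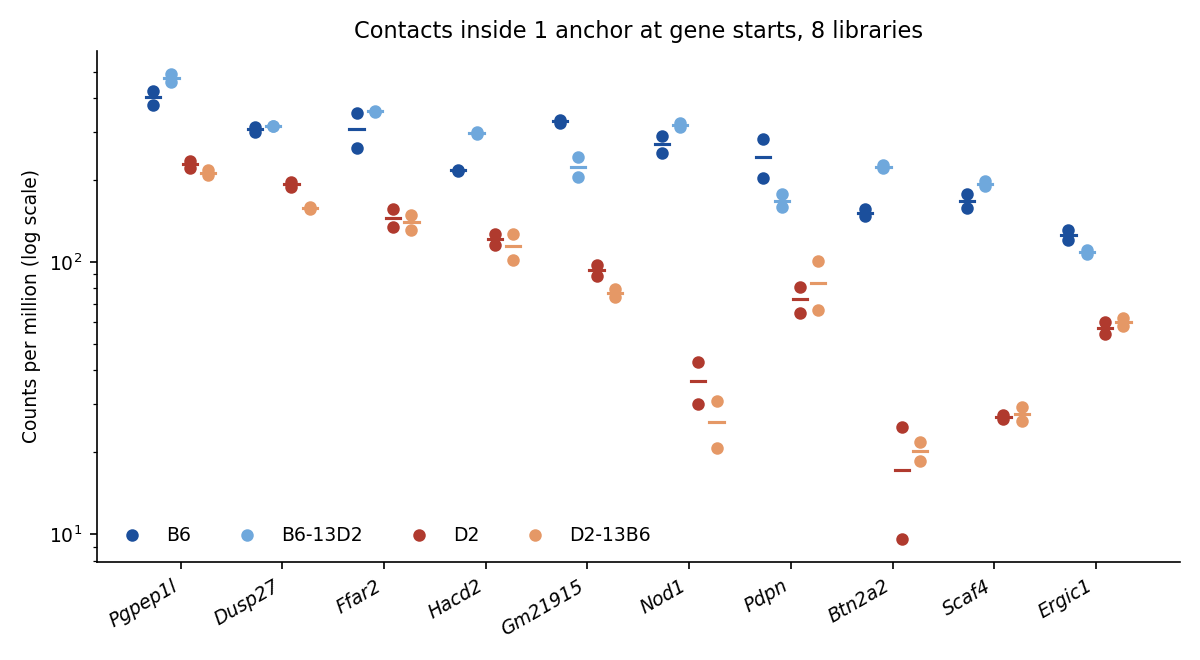
CPM (y axis, log scale) of contacts inside the 10 anchors with a coding gene start and the most counts, ordered by total count. Points are libraries, 2 per line, and bars are the mean of a line. Nod1, Btn2a2 and Scaf4 have the widest gap between the B6-background lines (blue) and the D2-background lines (red and orange).

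Of the 5 contacts with the most counts inside 1 anchor with no annotated start within 5 kb, 4 lay on chromosome 14 from 61730001, in the body of Ccdc77 on chromosome 6 from 120305001, on chromosome 6 from 93585001 and on chromosome 10 from 60160001. The anchor on chromosome 10 had 58.0 to 69.3 CPM in the B6 background and 17.5 to 22.9 CPM in the D2 background. The ratios of means of the 4 ran from 2.23 to 3.26, and the lowest B6-background library stood 1.67 to 2.54 times above the highest D2-background library.

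Of the loops joining 2 anchors, the one with the most counts joined 2 parts of Dst, which encodes the cytoskeletal linker dystonin, 47.5 kb apart on chromosome 1. It had 272 to 355 CPM in the B6 background and 136 to 174 CPM in the D2 background. Abt1, an activator of basal transcription, was joined to Btn2a2 at 196 and 180.2 CPM in B6, 268 and 259 CPM in B6-13D2 and 59.5 to 73.0 CPM in the D2 background. Loops outside the set at the 2 anchors of this loop summed to 477 ± 121 CPM in the B6 background and 473 ± 27.4 CPM in the D2 background, a ratio of 1.01.

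The phosphate transporter gene Slc20a1 on chromosome 2 had 171 to 199 CPM with the neighbouring anchor, against 81.8 to 96.1 CPM. Map7, a microtubule-associated protein, had 114 to 149.7 CPM with an anchor in its own body against 55.9 to 63.8 CPM. At Ly75, an endocytic receptor of dendritic cells and epithelia, 101 to 158 CPM stood against 52.3 to 62.5 CPM. A loop within Rai14 on chromosome 15 had 115 to 134 CPM against 57.3 to 71.6 CPM. Across these 6 loops the ratio of means ran from 1.91 within Rai14 to 3.44 at Abt1 to Btn2a2.

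The loops lay close together in part. Joined when their midpoints lay within 1 Mb of the next, they formed 184 groups. Of these 81 had more than 1 loop and held 257 of the 360, while 103 loops stood alone. They used 515 distinct anchors, and 93 anchors served 2 or more loops. Loops that share an anchor also share its fragments, so they are not independent.

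The largest group had 12 loops on chromosome 6 from 136515001 to 137575000, of 33 loops there that the rule could choose from, and 1 loop there met the opposite rule. It joined Atf7ip, Wbp11 and Rerg to anchors that hold no coding gene start, and 2 anchors of Eps8 to each other. The anchor from 136990001 to 137005000 took part in 6 of the 12, and the anchor from 137100001 to 137115000 in 5. Their strongest member joined 136990001 to 137005000 with 137010001 to 137020000, at 52.5, 47.4, 42.8 and 46.4 CPM in the B6 background and 7.22, 6.51, 5.74 and 5.61 CPM in the D2 background. The contact between these 2 much-used anchors had a mean of 17.9 CPM against 1.44 CPM, 12.4-fold. Loops outside the set at the strongest member's anchors were also lower in the D2 background, with a sum of 135 ± 3.90 against 33.6 ± 10.5 CPM.

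Atf7ip encodes a partner of the histone methyltransferase SETDB1, which acts in heterochromatin. The bin with its start had 145 ± 11.4 CPM in the B6 background and 157 ± 33.5 CPM in the D2 background. Its contact with the anchor at 136990001 had 12, 9, 20 and 12 counts in the B6 background and 4, 1, 6 and 3 counts in the D2 background.

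On chromosome 17, 9 loops lay from 36095001 to 37245000 in the extended major histocompatibility region, of 56 there that the rule could choose from, and 3 loops there met the opposite rule. Of these 9, 8 met at 1 anchor, from 37185001 to 37205000, which holds the start of Ubd, a ubiquitin-like modifier induced by inflammatory cytokines. From it they reached the anchors of Rpp21, Trim40, Rnf39, Mog, Gabbr1, Olfr93 and Olfr97. With Gabbr1, a subunit of the GABA-B receptor, the mean was 64.5 against 25.01 CPM. With the anchor of Rnf39, which also holds Zfp57 and the class I gene H2-M5, it was 72.0 against 28.0 CPM. Inside the Ubd anchor the mean was 34.6 ± 8.17 against 8.70 ± 2.56 CPM, and the bin with its start had 90.0 ± 7.90 against 23.8 ± 5.85 CPM.

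On chromosome 9, 8 loops from 40390001 to 40810000 joined Gm21915, Gramd1b and Clmp, of 20 loops there that the rule could choose from. The anchor from 40580001 to 40595000, without an annotated start, took part in 6 of them. Its contact with the next anchor, from 40610001 to 40620000, had the widest ratio of the group, with a mean of 26.9 against 3.43 CPM. Other groups of 6 or more lay on chromosome 16 from 30080001 to 33405000 with 9 of 178 loops to choose from, on chromosome 19 from 60575001 with 8 of 46, on chromosome 7 from 42615001 to 43585000 with 7 of 37, and at Atp1b1 on chromosome 1 with 6 of 9.

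Per chromosome, the share of loops to choose from that entered the set was highest on chromosome 6, with 36 loops or 1.75%, followed by chromosome 19 with 1.65% and chromosome 12 with 1.60%. It was lowest on chromosomes 8 and 18, at 0.473% on each. Chromosome 13, which carries the exchanged interval, had 15 loops or 1.26%. They included 4 at Btn2a2, loops at Stard3nl, Zfp874b to Zfp58, Ttc37, Gm48609 and Nnt, a loop with no coding start at 46010001 and a loop at 106815001 with the start of Ipo11 within 5 kb. A loop inside the interval would hold the D2 sequence in B6-13D2, and since marker positions were not used here, which of the 15 lie inside it was not worked out.

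At Nnt on chromosome 13, the mitochondrial transhydrogenase gene known to be partly deleted in C57BL/6J, contacts inside the anchor had 106, 75, 149 and 184 counts in the B6 background and 31, 24, 44 and 34 counts in the D2 background. Their ratio of means was 4.04. The Nnt loop to the neighbouring anchor had a ratio of 2.92.

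Gene lists were set against the 302 protein-coding genes with a start at these loops, of 8969 with a start at the loops to choose from. Of 24 pluripotency genes, 1 was among them, the Nodal antagonist Lefty2, whose loop had only 6 to 12 counts per library in the B6 background and 0 to 7 in the D2 background. Of 19 heterochromatin genes, 2 were, Atf7ip and Cbx5, the latter encoding HP1 alpha. Of 12 innate immune genes, 1 was, Nod1. The glutathione transferases Gsto1 and Gsto2 were 2 of 13 in their family. Genes named Zfp, which mostly encode zinc finger proteins, had 15 of 243.

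Among the Zfp genes, Zfp984 on chromosome 4 had the widest ratio, 5.93, in a loop between anchors at its own start, with a mean of 31.7 ± 4.29 against 5.35 ± 2.14 CPM. Contacts inside the anchor of Zfp976 on chromosome 7 had 39, 43, 47 and 51 counts against 10, 10, 10 and 13. Zfp984 and Zfp985, and Zfp975 and Zfp976, are neighbours in families of similar genes, so their counts are uncertain where reads could be split between copies. None of 63 histone genes had a start at the 360 loops.

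Loops outside the set at the same anchors leaned the same way. For each of the 360 loops, all loops outside the set that touch either anchor were summed. The log2 ratio of the B6 background to the D2 background, with 0.5 CPM added to both, had a median of 0.68 and quartiles of 0.39 and 0.95 in these sums. It was above 0 for 338 of the 360 and had a median of 1.55 for the loops themselves. Over the other loops to choose from the median was 0.03. Anchors whose contacts of all kinds are higher enter the set more easily.

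By distance, 2065 other loops that share an anchor with one of the set had a median log2 ratio of 0.39, and 75.4% of them lay above 0. At a gap of up to 25 kb to the nearest anchor the median was 0.11, at 100 to 250 kb it was 0.07, and at 500 to 1000 kb it was 0.02. Beyond 2 Mb it was -0.01. The median was thus 0.11 or less among neighbours that share no anchor with the set.

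**Figure D4:**
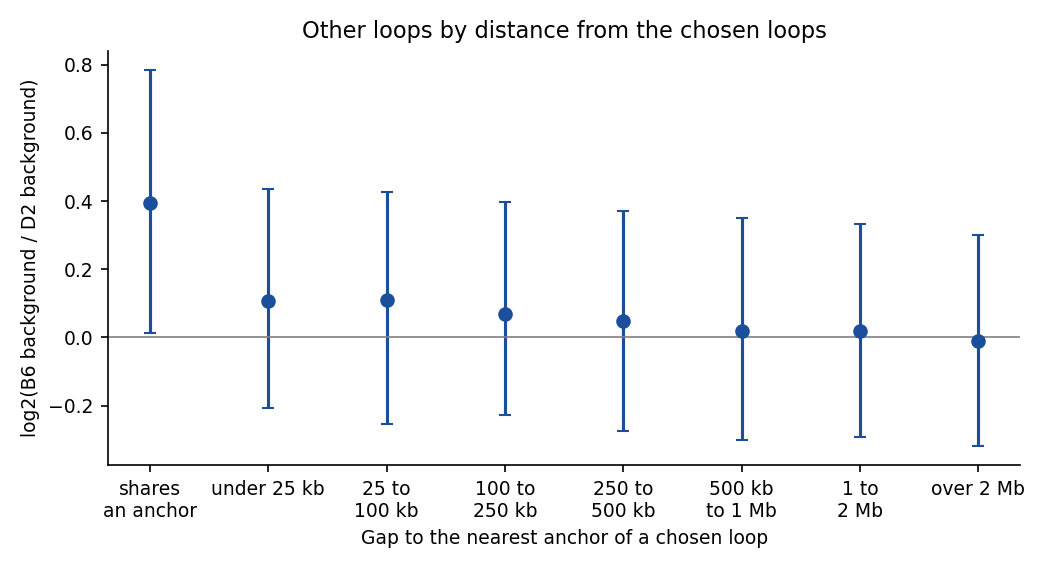
Median log2 ratio of B6 background to D2 background (y axis, points) with quartiles (bars) for other loops, by the gap to the nearest anchor of the 360 loops (x axis). The median falls from 0.39 for loops that share an anchor to 0.11 within 25 kb and to -0.01 beyond 2 Mb.

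Within most loops, the counts came from more than 1 bin pair. The bin pairs of the libraries' own files summed to the table for all 360 loops in all 8 libraries. A loop held a median of 6 bin pairs, from 1 to 77, and its strongest pair held a median of 34.6% of its counts. Of 1052 bin pairs with at least 20 counts, 1034 had the higher mean in the B6 background. This follows largely from the choice, since the pairs make up the loops. High counts in the B6 background also help a pair reach the 20 counts.

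The lines that differ in the interval of chromosome 13 gave tests whose direction the rule left free. Each genotype is a single line, so an effect of the interval cannot be told apart from any other difference between lines. Below, an interval effect means a difference between lines that differ in the interval, whatever its source. The rule set both lines of a background on the same side, so effects of the interval within a background did not enter it, although a loop with a wide interval effect would fit the rule less easily. The counts were tested with edgeR's quasi-likelihood test over all 44706 loops that reached 5 counts in 2 or more libraries, at a Benjamini-Hochberg false discovery rate (FDR) of 0.05, and 358 of the 360 loops were tested. The 2 left out, Rnf10 to Hspb8 and a loop on chromosome 6 from 134955001 to 135030000, had 31 and 32 counts in total.

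For B6-13D2 against B6, 8 of the 358 loops were called, 4 higher and 4 lower in B6-13D2. That is 2.23%, against 0.859% of all tested loops and 1.04% of tested loops to choose from. For D2 against D2-13B6, 1 loop was called, or 0.279%, against 0.922% and 0.676%. For the mean of the 2 interval effects, taken as D2 interval minus B6 interval, 2 loops were called, both higher with the D2 interval, or 0.559% against 0.986% and 1.05%. For the interaction, the interval effect in the D2 background minus that in the B6 background, edgeR called 0 of 358, against 0.606% and 0.503%, with 16 at an unadjusted p under 0.05, and DESeq2 also called 0. Apart from the contrast within the B6 background, these shares lie below those of all tested loops and of tested loops to choose from. The rule itself sets the counts of the set high in the B6 background and low in the D2 background. Counts bear on how easily a change is called, and the other loops were not matched for them. No conclusion is therefore drawn from a share of calls above or below that of other loops.

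The counts of calls rested on single libraries. Without B6 replicate 1, 0 loops were called for B6-13D2 against B6, without B6 replicate 2 there were 2, without B6-13D2 replicate 1 there was 1, without its replicate 2 there were 2, and without either library of D2-13B6 there were 5. The 1 call for D2 against D2-13B6 was lost when any library of these 2 lines was left out, and 2 loops were called without B6 replicate 1. For the averaged effect 0 loops were called without B6 replicate 1, either D2 library, B6-13D2 replicate 2 or D2-13B6 replicate 1, and 1 without B6-13D2 replicate 1.

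The 4 loops that rose in B6-13D2 over B6 included Btn2a2, with a log2 fold change of 0.60 ± 0.15 (SE) and an edgeR adjusted p of 0.0136, and Abt1 to Btn2a2, with 0.51 ± 0.14 and an adjusted p of 0.0382. They share the Btn2a2 anchor and lie on chromosome 13. The bins around this anchor were higher in B6-13D2 as well. In every bin with counts outside the anchor, as far as the plot of contacts by distance reaches, both B6-13D2 libraries lay above both B6 libraries. The bin centred 43.6 kb upstream of the start had 58.8 and 66.4 CPM in B6 and 124 and 122 CPM in B6-13D2. It had 139.5 and 135.4 CPM in D2 and 141.2 and 187.3 CPM in D2-13B6, above each B6-background library. Contacts inside Hacd2 rose by 0.49 ± 0.14 (edgeR adjusted p = 0.0403), with 215 and 218 CPM in B6 against 300.3 and 295 CPM in B6-13D2. A loop of Rims1, which encodes a protein of the synaptic active zone, rose by 1.43 ± 0.37 (edgeR adjusted p = 0.0207) from 11.6 and 9.49 to 31.6 and 25.8 CPM. In none of the 4 did the libraries of B6 and B6-13D2 overlap, which adds little, since the same libraries gave the calls.

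The 4 loops that fell in B6-13D2 were Gm21915, which fell by 0.51 ± 0.13 on the log2 scale (edgeR adjusted p = 0.0221), and Pdpn, which fell by 0.51 ± 0.14 (edgeR adjusted p = 0.0426). Gm10521 on chromosome 1, in the body of the surface receptor gene Cd84, fell by 1.04 ± 0.28 (edgeR adjusted p = 0.0313), from 52.5 and 37.9 to 27.5 and 17.7 CPM. The anchor on chromosome 5 from 104720001, at 0 in the D2 background, fell by 1.28 ± 0.33 (edgeR adjusted p = 0.0234), from 27.3 and 37.9 to 11.2 and 14 CPM. These 4 lie off chromosome 13. Their libraries of B6 and B6-13D2 did not overlap, which again adds little to the calls. Without B6 replicate 1 the change at Pdpn was -0.25 (edgeR adjusted p = 0.771), and its call was lost in 10 of 14 other fits. Over all 11 called effects, the call was lost in 3 to 12 of the 14 other fits. DESeq2, one of the 14, gave no adjusted p for 4 of the 11, which were not counted as lost there.

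In the D2 background, Tex21 to Mthfd1 on chromosome 12 was the called loop. Mthfd1 encodes an enzyme of folate metabolism. It stood at 55.3 and 67.7 CPM in D2 and at 30.1 and 35.1 CPM in D2-13B6, a log2 fold change of 0.86 ± 0.23 (edgeR adjusted p = 0.0295). In the B6 background it had 141 and 121 CPM in B6 and 139 and 143 CPM in B6-13D2. It was also called for the averaged effect, at 0.50 ± 0.14 (edgeR adjusted p = 0.0455). The second loop called for the averaged effect lay in Pknox2, a homeobox gene, on chromosome 9 from 37085001 to 37110000, at 0.70 ± 0.19 (edgeR adjusted p = 0.0261). It had 62.0 and 65.0 CPM in B6, 80.4 and 85.5 CPM in B6-13D2, 34.9 and 28.6 CPM in D2, and 12.9 and 18.2 CPM in D2-13B6, so the line with the D2 interval was higher in each background.

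**Figure D5:**
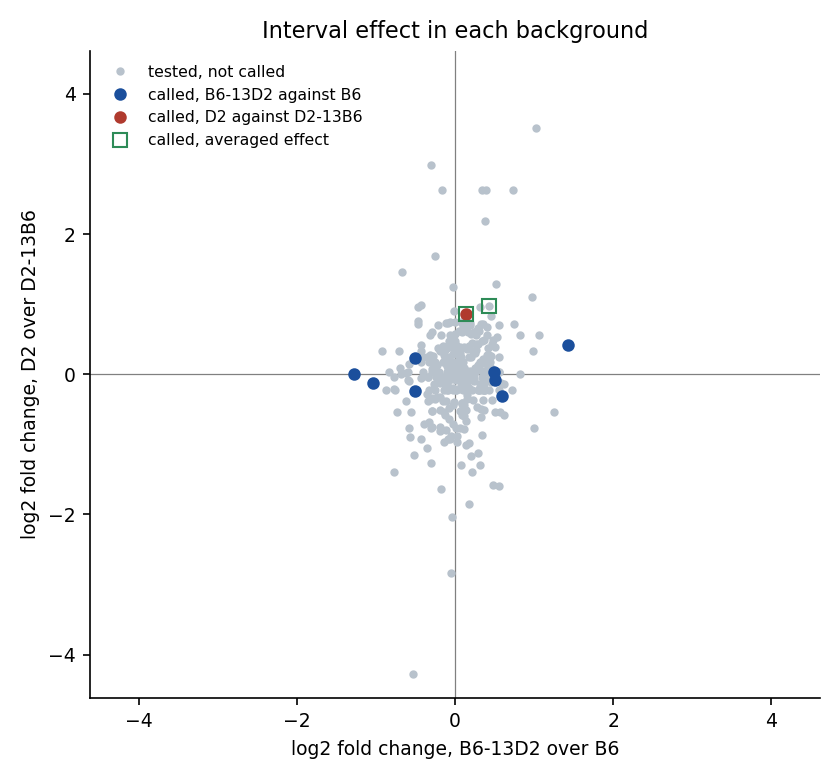
log2 fold change of B6-13D2 over B6 (x axis) against that of D2 over D2-13B6 (y axis) for the 358 tested loops, with called loops marked by contrast. The 8 loops called in the B6 background lie between -1.28 and 1.43 on the x axis, and most of the 358 lie close to 0 on both axes.

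Over the 358 loops the median log2 fold change was 0.07 for B6-13D2 against B6 and 0.01 for D2 against D2-13B6, against 0.01 and 0.03 for tested loops to choose from. The 5th and 95th percentiles were -0.59 and 0.56 in the B6 background and -0.97 and 0.84 in the D2 background, where counts were lower. The log2 ratio of the backgrounds that chose the loops had a median of 1.55.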

How the data were processed

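H3K27ac HiChIP libraries of 4 mouse embryonic stem cell lines, 2 technical replicates each, were analysed from the counts of read pairs per loop that the authors deposited, which are raw and not normalized. Per the labels' protocols, libraries were made with a micrococcal nuclease HiChIP kit and sequenced as 150 bp read pairs. The submitters' processing notes name mm10, BWA 0.7.18, SAMtools 1.19.2 and edgeR 3.34.1, and the loop caller is not given in the sources used here. The reference is of the B6 strain, so a read of D2 origin can differ from it. The loops and gene lists were chosen with earlier results of these data known.

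The rule was applied to CPM from column totals. Genes came from GENCODE M21, and GC content, masked bases and promoters from RefSeq GRCm38.p6. Anchors were compared with GRCm38, and 0 of 30044 passed a chromosome end. Every per-sample column matched a sample. For the interval contrasts a quasi-likelihood model was fitted to all 8 libraries with edgeR 4.0.16 (R 4.3.3), TMM scaling and a mean for each line, and the procedure was checked on simulated counts. The SE was obtained from the log2 fold change and its F statistic. Read pairs carry no molecular identifiers, so intervals cover counting error only. Totals of 737955 to 1425304 counts limit precision, with a median of 91.5 counts per loop of the set over all libraries.

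Loops named in the text were the 10 with the most counts among contacts inside 1 anchor with a coding start, the 5 with the most among those without a start, the 6 with the most between 2 anchors, the 5 with the largest ratio of lowest to highest library, called loops, loops at the limit and genes of the lists. A midpoint within 1 Mb of one already taken was skipped. One loop that the rule names is not reported here. Called loops beyond the 3 with the smallest FDR per contrast, and the bin runs, the Trim genes and the groups described, were chosen after their values were seen. Alternatives were DESeq2 1.42.0, other scalings, filters and limits, a replicate block, and leaving out each library.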

Additional observations from a re-analysis of the deposited data

Results flagged for a closer look

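The order of the libraries was examined in the loops named for their counts or their ratio and in the called loops, and not in the rest of the set. In 2 of these, every library moved one way with the interval in the B6 background and the opposite way in the D2 background. At Gm21915 on chromosome 9, both B6-13D2 libraries lay below both B6 libraries and both D2 libraries lay above both D2-13B6 libraries. The interaction was 0.74 on the log2 scale, and the test of this difference in edgeR gave an adjusted p of 0.116. At the loop on chromosome 6 from 136990001 to 137020000 the libraries were ordered in the same manner, with an interaction of 0.36 and an edgeR adjusted p of 0.929. Neither difference passed the threshold. With 2 libraries per line such an order can arise without an interaction, and its share over all loops was not worked out.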

How the results depend on the processing

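The number of loops meeting the rule was 838 at the lower limit tried and 126 at a ratio of 2. Leaving out 1 library at a time gave 419 to 582 loops, with 582 without D2 replicate 1. Column totals without chromosome 11 gave 349 loops, 348 of them shared with the 360, and TMM factors gave 359 with 340 shared. The share with a gene start was 60% when the start had to lie in the anchor itself. The median log2 ratio of loops outside the set at the anchors stayed between 0.62 and 0.72 when 1 library was left out.

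For B6-13D2 against B6, against 8 called loops, DESeq2 called 1, the fit with the replicate block 3, and a false discovery rate of 0.01 left 0. Leaving out 1 library gave 0 to 7. For the averaged effect, against 2, DESeq2 called 0, a TMM factor per chromosome 1, leaving chromosome 11 out of the fit 1, the replicate block 1 and a false discovery rate of 0.01 left 0, with 0 to 2 when 1 library was left out. For D2 against D2-13B6, against 1, DESeq2 and library totals alone each called 2, while a TMM factor per chromosome, leaving out chromosome 11 and a false discovery rate of 0.01 each gave 0, with 0 to 2 when 1 library was left out. For the interaction, against 0, library totals alone and a TMM factor per chromosome each called 1, and leave-one-out fits called 0. The causes of these changes were not tested. None of the 11 called effects changed sign under any of the 14 other fits.

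Replicate numbers did not pair the libraries, since same-numbered libraries of different lines deviated from their line means with a correlation of -0.05 to 0.00 across loops. The block result above is therefore a check on the number only. Depth limits the loops near 30 counts, where a library holds a few counts and a ratio of 1.5 can turn on 1 or 2 of them.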
